A study of Mus musculus with 6 samples.

Results

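The linker histone H1 family was examined in RNA sequencing of mouse leukaemia cells. Its 7 genes, H1f0, H1f1, H1f2, H1f3, H1f4, H1f5 and H1f10, were taken by name from a table of 27179 genes; all 7 have a row there, and 6 had enough reads to be tested. The panobinostat group holds 3 libraries and the vehicle group another 3. All come from C57BL/6 mice and from 1 leukaemia line, A/E9a;NRASG12D;Ifnar1-/-, in which the fusion oncogene A/E9a and a mutant NRAS act in cells that lack the interferon receptor gene Ifnar1; both groups share these alleles. After 3 days of panobinostat, an inhibitor of histone deacetylases, or of vehicle, viable GFP-positive leukaemia cells were sorted from the spleen. The labels name neither dose, nor age, nor separate animals, so p-values measure the spread between these libraries, which may be technical.

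Linker histones bind the DNA that enters and leaves the nucleosome and help fold the chromatin fibre. H1f1 to H1f5 are replication-dependent subtypes, transcribed mainly in S phase, and their principal transcripts end in a stem-loop and carry no poly(A) tail. H1f0 and H1f10 are replication-independent and polyadenylated; H1f0 is the subtype that accumulates in many cells that leave the cell cycle or differentiate, and its gene responds to histone deacetylase inhibitors in many cell types. The libraries here are mRNA libraries, per the labels' protocols, and how fully they count transcripts without a poly(A) tail was not tested.

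H1f0 lies on chromosome 15 (79028212 to 79030504, GRCm38), and H1f10 on chromosome 6 (87980421 to 87981482). The 5 replication-dependent genes lie on chromosome 13: H1f5 at 21779832 to 21780625, H1f3 at 23555032 to 23555807, H1f4 at 23621777 to 23622558, H1f2 at 23738807 to 23739531 and H1f1 at 23763668 to 23764412. Each of the 7 genes has a single exon in GENCODE. H1f3, H1f4, H1f2 and H1f1 follow each other with gaps of 65969, 116248 and 24136 bases, while H1f5 is separated from H1f3 by 1774406 bases. The 140 bases upstream of the RefSeq start of 6 genes are shown. CCAAT stands in each replication-dependent window and 2 other short motifs in most of them, while this H1f0 window holds none. Sequences are from RefSeq (GRCm38.p6), read 5′ to 3′ on the gene's strand. Capitals mark AAACACA, known as the H1 box, CCAAT and TATAAA, searched on both strands; the motifs share no base in these windows.
H1f2 (chr13:23738667-23738806, plus strand): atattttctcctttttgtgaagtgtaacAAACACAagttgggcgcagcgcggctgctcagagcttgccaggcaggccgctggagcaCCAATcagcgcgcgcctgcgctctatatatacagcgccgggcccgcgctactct
H1f3 (chr13:23554892-23555031, plus strand): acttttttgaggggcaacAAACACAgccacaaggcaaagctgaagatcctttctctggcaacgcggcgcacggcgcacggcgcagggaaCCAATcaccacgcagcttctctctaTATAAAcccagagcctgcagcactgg
H1f4 (chr13:23622559-23622698, minus strand): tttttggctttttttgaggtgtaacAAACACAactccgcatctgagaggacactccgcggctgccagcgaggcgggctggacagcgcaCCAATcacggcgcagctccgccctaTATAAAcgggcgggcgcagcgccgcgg
H1f5 (chr13:21780626-21780765, minus strand): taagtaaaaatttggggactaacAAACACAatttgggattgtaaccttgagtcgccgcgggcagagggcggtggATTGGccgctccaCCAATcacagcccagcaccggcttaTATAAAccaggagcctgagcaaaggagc
H1f1 (chr13:23763528-23763667, plus strand): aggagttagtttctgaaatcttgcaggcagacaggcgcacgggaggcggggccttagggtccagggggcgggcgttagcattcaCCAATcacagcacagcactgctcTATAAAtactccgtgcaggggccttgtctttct
H1f0 (chr15:79028072-79028211, plus strand): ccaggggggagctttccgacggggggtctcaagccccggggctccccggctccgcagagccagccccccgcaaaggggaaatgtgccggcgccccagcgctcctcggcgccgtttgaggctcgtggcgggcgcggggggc

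AAACACA stood 112, 122, 115 and 117 bases upstream of the start in H1f2, H1f3, H1f4 and H1f5, and CCAAT followed at 54, 51, 52 and 53 bases. The distance from the first base of AAACACA to that of CCAAT was 58, 71, 63 and 64 bases in these 4 genes. H1f1 had CCAAT at 56 bases and TATAAA at 33 bases but no AAACACA. H1f5 also held CCAAT on the opposite strand at 66 bases, and TATAAA stood at 26, 27 and 28 bases in H1f3, H1f4 and H1f5, with none in the H1f2 window. Of 32851 RefSeq promoter windows of this length, 3.25% held AAACACA, 23.4% CCAAT, 7.21% TATAAA and 0.700% both AAACACA and CCAAT. The windows of H1f0 and H1f10 held none of the 3 motifs and were richer in G and C, at 77.1% and 83.6%, against a median of 54.3% over all windows. The windows are set by the RefSeq start. GENCODE places the start 238 bases farther downstream for H1f0, and 1770 and 155 bases farther upstream for H1f3 and H1f10; for the other 4 genes the starts are at most 2 bases apart.

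Total counts per library were 34023178 to 35962605 in the panobinostat group and 31989622 to 34704965 in the vehicle group. Levels are given as CPM, the count scaled to a common library size (TMM factors). Vehicle library 1 stood apart from its group. Its correlation of log2 CPM over the tested genes (Pearson, a description only, since genes are no replicates) was 0.954, 0.976 and 0.984 with panobinostat libraries 1, 2 and 3, against 0.942 and 0.941 with vehicle libraries 2 and 3. Panobinostat library 1 was also less close to its group: it correlated at 0.971 and 0.963 with panobinostat libraries 2 and 3, which correlated at 0.987 with each other. The log2 fold changes of the members are therefore also given without vehicle library 1, and without both libraries numbered 1 where that changes a call. Some genes used as markers of other cell types differed between these libraries. The summed level of 12 megakaryocyte markers was 664, 598 and 662 CPM in panobinostat libraries 1, 2 and 3 and 1105, 259 and 273 CPM in vehicle libraries 1, 2 and 3. The 13 B cell markers summed to 10.6 to 71.2 CPM in panobinostat and 59.0 to 149 CPM in vehicle libraries, and the 14 T cell markers to 12.5 to 21.4 CPM in panobinostat and 20.3 to 26.7 CPM in vehicle libraries. The 14 granulocyte and monocyte markers summed to 6.75 to 9.19 CPM in panobinostat and 10.9 to 13.8 CPM in vehicle libraries. The 12 mast cell and basophil markers summed to 2633 to 4748 CPM in panobinostat and 2537 to 2729 CPM in vehicle libraries, with the highest value in panobinostat library 1. The 13 erythroid markers found in the table summed to 3220 to 23601 CPM in panobinostat and 8698 to 24263 CPM in vehicle libraries. None of these marker genes was at 0 in all 6 libraries. In bulk libraries fewer cells of a type and less RNA per cell cannot be told apart. Whether these transcripts come from other cells or from the sorted leukaemia cells themselves was not tested. The part of these markers in the results below was not tested either.

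H1f0 had the most reads of the family in every library. It stood at 217.7, 291 and 311 CPM in panobinostat libraries 1, 2 and 3, and at 281, 191 and 169.98 CPM in vehicle libraries 1, 2 and 3. Panobinostat libraries 2 and 3 were above every vehicle library, while panobinostat library 1 lay under vehicle library 1, so that the groups overlapped. Groups overlapped for each of the 6 tested members, while they did not for 7.43% of all tested genes. The means were 273 ± 49.3 CPM with panobinostat and 214 ± 58.8 CPM with vehicle (SD, n = 3 each). The log2 fold change was 0.35 (SE 0.232), and it did not pass edgeR's quasi-likelihood test (adjusted p = 0.998 over 13207 genes, unadjusted p 0.174). The test called 0% of all genes, so a member without a call does not differ in this from the rest of the table. At an unadjusted p under 0.05 there were 301 genes, none of them a member; DESeq2 called 9 genes (0.0681%) and limma-voom 0, also with no member.

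The size of the H1f0 difference depended on the libraries numbered 1. Without vehicle library 1 the log2 fold change was 0.59 (SE 0.172), with an adjusted p of 0.145 in edgeR's test, which then called 2.42% of genes. Without both libraries numbered 1 it was 0.73 (SE 0.0939) and H1f0 was called higher (edgeR adjusted p 0.00684), in a fit that called 7.36% of all genes higher and 12.0% in either direction. These fits leave 2 vehicle libraries, or 2 libraries a group. H1f0 was the only member called there. Panobinostat library 1 had the lowest H1f0 level of its group, and vehicle library 1 the highest of its own. Leaving both out widens the H1f0 difference in advance, so the call gives no separate support for it. With any single library other than vehicle library 1 left out the log2 fold change lay between 0.22 and 0.50. The summed megakaryocyte markers were low in the same vehicle libraries 2 and 3 in which H1f0 was lowest. Panobinostat library 1, lowest of its group in H1f0, was not low in this sum, at 664 CPM. A single marker gene reached a group mean of 508 CPM, so the sum rests mainly on that gene. Of 8 megakaryocyte markers tested over all libraries, the estimate was above 0 for 3 and below 0 for 5. Their median log2 fold change was -0.03 there, 0.58 without vehicle library 1 and 0.54 without both libraries numbered 1. The marker F2r was called higher by edgeR in both of the latter fits, and Itga2b and Pf4 without both libraries numbered 1. Vehicle library 1 was the highest of its group for each of these genes. Leaving it out raises their estimates in advance, so these calls give no separate support. Cdkn1a, the cell cycle inhibitor p21, named after its values were seen, was also high in panobinostat libraries 2 and 3 and in vehicle library 1: it stood at 85.9, 238 and 324 CPM in panobinostat libraries 1, 2 and 3 and at 428, 60.3 and 56.9 CPM in vehicle libraries 1, 2 and 3.

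**Figure D1:**
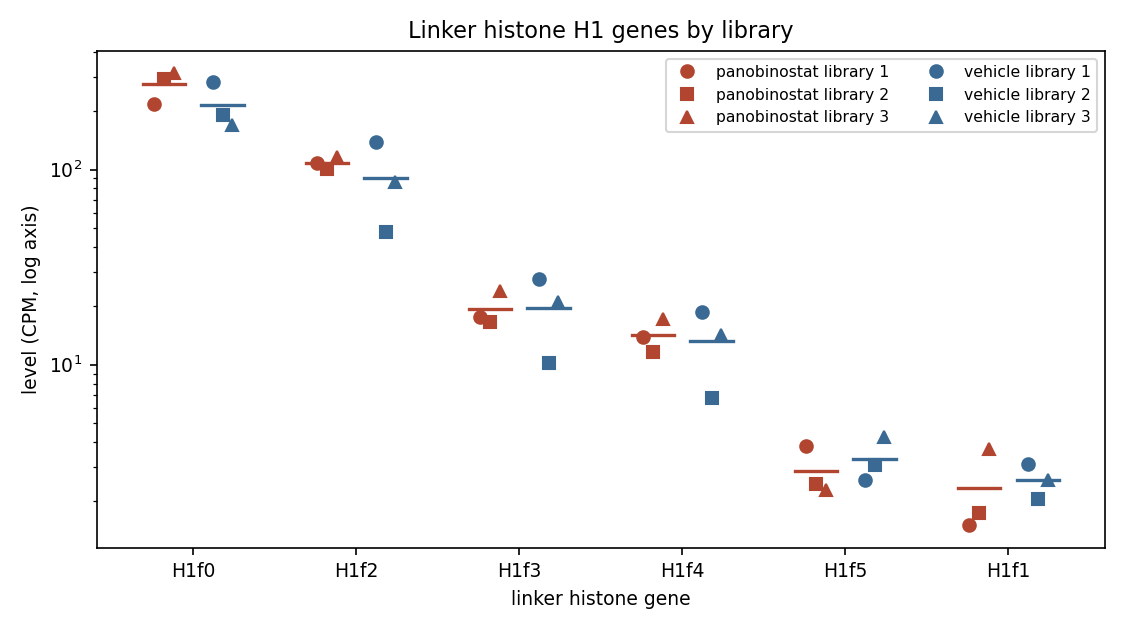
Levels of the 6 tested linker histone genes in CPM on a log axis, panobinostat libraries in red on the left and vehicle libraries in blue on the right of each gene; horizontal bars are group means and the marker shape is the library number. H1f0 and H1f2 lie highest, and the groups overlap for each of the 6 genes.

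H1f2, H1f3 and H1f4, 3 neighbours on chromosome 13, carried most replication-dependent H1 reads. H1f2 stood at 108, 101 and 116 CPM in panobinostat libraries 1, 2 and 3, and at 138, 47.8 and 86.0 CPM in vehicle libraries 1, 2 and 3. The panobinostat libraries were close together and lay inside the range of the vehicle libraries, which held both the highest and the lowest value. H1f3 stood at 17.5, 16.5 and 23.8 CPM in panobinostat and 27.5, 10.2 and 20.9 CPM in vehicle libraries. H1f4 stood at 13.8, 11.7 and 17.1 CPM in panobinostat and 18.7, 6.71 and 14.2 CPM in vehicle libraries. Vehicle library 1 was the highest and vehicle library 2 the lowest of the 6 for each of H1f2, H1f3 and H1f4. The highest value was 2.90, 2.69 and 2.78 times the lowest in the 3 genes, against 1.83 times for H1f0.

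None of the 3 passed edgeR's test. The log2 fold changes were 0.26 (SE 0.358) for H1f2, -0.02 (SE 0.365) for H1f3 and 0.10 (SE 0.377) for H1f4, each with an adjusted p of 0.998. The group means were 108 ± 7.29 CPM with panobinostat and 90.7 ± 45.5 CPM with vehicle for H1f2 (SD, n = 3 each). Without vehicle library 1 the 3 estimates became 0.68, 0.29 and 0.42, with edgeR adjusted p of 0.225, 0.692 and 0.561. Without vehicle library 2 they became -0.05, -0.33 and -0.21, so the direction turned for H1f2 and H1f4. That of H1f4 turned also without panobinostat library 3, at -0.06. That of H1f3, already below 0, turned without vehicle library 1 or 3 or panobinostat library 1 or 2.

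The 3 genes varied less against each other than each did alone: the highest ratio over the 6 libraries was 1.20 times the lowest for H1f3 over H1f4, 1.43 times for H1f2 over H1f4 and 1.50 times for H1f2 over H1f3. H1f3 had 1.27, 1.42 and 1.39 reads per read of H1f4 in panobinostat libraries 1, 2 and 3, and 1.47, 1.52 and 1.48 in vehicle libraries. Every panobinostat library lay under every vehicle library in this ratio. The difference in means was -0.13 (exact two-sided permutation p = 0.1, the smallest that 3 against 3 allow; 0.48 adjusted over the 6 ratios of members computed), and it was -0.14 without vehicle library 1. H1f2 had 7.84, 8.68 and 6.79 reads per read of H1f4 in panobinostat libraries and 7.41, 7.12 and 6.08 in vehicle libraries, and here the groups overlapped. H1f2, H1f3 and H1f4 are close paralogs: 8.54%, 2.21% and 8.24% of the 50-base words of their GENCODE transcripts occur in another member, so the split of some reads between them is uncertain. No such word of H1f0, H1f1, H1f5 or H1f10 occurs in another member.

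H1f5 and H1f1 were counted at a much lower level and did not follow the other 3. H1f5 stood at 3.81, 2.45 and 2.28 CPM in panobinostat libraries 1, 2 and 3, and at 2.56, 3.07 and 4.26 CPM in vehicle libraries. Panobinostat library 1 and vehicle library 3 were the high ones. H1f1 stood at 1.50, 1.74 and 3.71 CPM in panobinostat and 3.10, 2.04 and 2.55 CPM in vehicle libraries, with panobinostat library 3 highest and panobinostat library 1 lowest. The counts behind H1f1 were 54 to 125 and those behind H1f5 77 to 147. The 95% Poisson interval of H1f1, which covers counting error only, was 1.13 to 1.96 CPM in panobinostat library 1 and 3.09 to 4.42 CPM in panobinostat library 3, so these libraries of the same group differed by more than counting error. The log2 fold changes were -0.21 (SE 0.331) for H1f5 and -0.15 (SE 0.421) for H1f1, each with an edgeR adjusted p of 0.998. Without vehicle library 1 the estimates were -0.38 and -0.00053, with adjusted p of 0.587 and 1.00. The direction turned without vehicle library 3 for H1f5, and without panobinostat library 1 or 2 for H1f1.

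**Figure D2:**
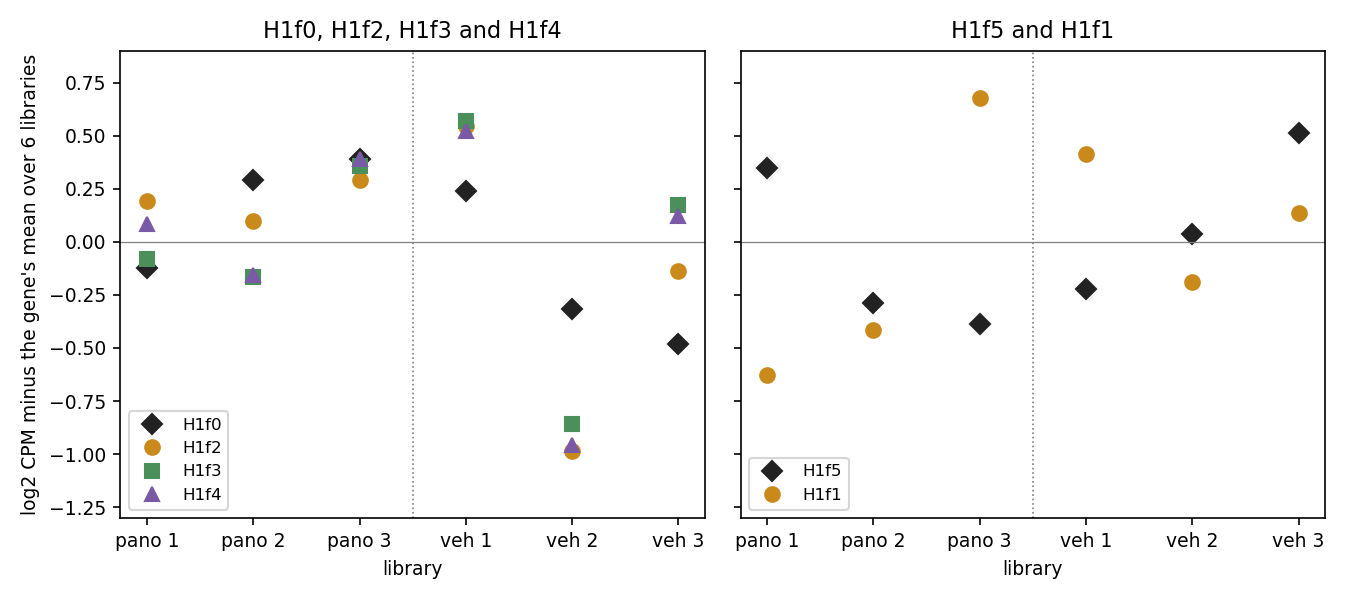
Log2 CPM of each gene minus its own mean over the 6 libraries, with panobinostat (pano) libraries left of the dotted line and vehicle (veh) libraries right of it. H1f2, H1f3 and H1f4 lie together and are lowest in vehicle library 2 and highest in vehicle library 1; H1f5 and H1f1 are spread differently.

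H1f10, the other replication-independent subtype, was hardly counted. It had 2, 0 and 0 reads in panobinostat libraries 1, 2 and 3, and 2, 0 and 0 reads in vehicle libraries 1, 2 and 3. A count of 0 was set against a fixed floor of 3 reads, or 0.0834 to 0.0890 CPM in panobinostat and 0.0861 to 0.0948 CPM in vehicle libraries. The 95% Poisson interval of a count of 0 reached somewhat higher, to 3.69 reads. H1f10 was not tested. In the libraries with 2 reads, the 95% Poisson interval reached 0.201 CPM in panobinostat library 1 and 0.228 CPM in vehicle library 1. Of the 4 germline linker histones, which serve in testis or oocyte, H1f7, H1f8 and Hils1 had no read in any library, and the 4 together summed to at most 0.297 CPM in panobinostat and 0.145 CPM in vehicle libraries.

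Per kilobase of the RefSeq transcript, H1f2 and H1f0 led. This scaling accounts for length only, not for how fully transcripts without a poly(A) tail are counted, which was not tested. H1f2 had 149 ± 10.1 CPM per kilobase with panobinostat and 125 ± 62.7 with vehicle, and H1f0 had 119 ± 21.5 with panobinostat and 93.2 ± 25.7 with vehicle (SD, n = 3 each). H1f3 followed with 24.8 ± 5.05 with panobinostat and 25.2 ± 11.2 with vehicle, and H1f4 with 18.1 ± 3.47 with panobinostat and 16.9 ± 7.72 with vehicle. H1f5 had 3.58 ± 1.05 with panobinostat and 4.15 ± 1.10 with vehicle, and H1f1 3.11 ± 1.62 with panobinostat and 3.44 ± 0.711 with vehicle. H1f2 was above H1f0 in 5 of 6 libraries and H1f5 above H1f1 in 4 of 6, so these neighbours in the order did not separate. H1f0 was above H1f3, and H1f3 above H1f4, in 6 of 6. The order rests on the transcript length: GENCODE gives 1560 bases for H1f2, 7425 for H1f3 and 1930 for H1f4, against 725, 776 and 782 in RefSeq. With the longer models H1f2 was above H1f0 in 0 of 6 libraries and H1f3 above H1f4 in 0 of 6, while H1f0 stayed above H1f3 in 6 of 6.

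H1f0 made up 32.6, 41.2 and 38.2% of the summed H1 level per kilobase in panobinostat libraries 1, 2 and 3, and 32.2, 46.9 and 30.1% in vehicle libraries 1, 2 and 3. The highest and the lowest share were both in vehicle libraries. The means by RefSeq lengths were 37.3 ± 4.34% with panobinostat and 36.4 ± 9.15% with vehicle (SD, n = 3 each), a difference of 0.934 percentage points (exact two-sided permutation p = 0.8; the smallest possible is 0.1). The difference turned to -0.992, -1.15 and -2.23 points when panobinostat library 2, vehicle library 1 or vehicle library 3 was left out. The difference was smaller than the spread between replicates. The size of the share rests on the lengths: with GENCODE lengths it averaged 60.4 ± 4.66% with panobinostat and 58.9 ± 8.56% with vehicle, and as a share of counts 64.8 ± 4.31% with panobinostat and 63.3 ± 8.68% with vehicle. H1f2 made up 76.0, 77.0 and 72.6% of the replication-dependent H1 level per kilobase in panobinostat and 74.1, 69.9 and 68.8% in vehicle libraries, with overlapping groups (exact permutation p = 0.2).

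**Figure D3:**
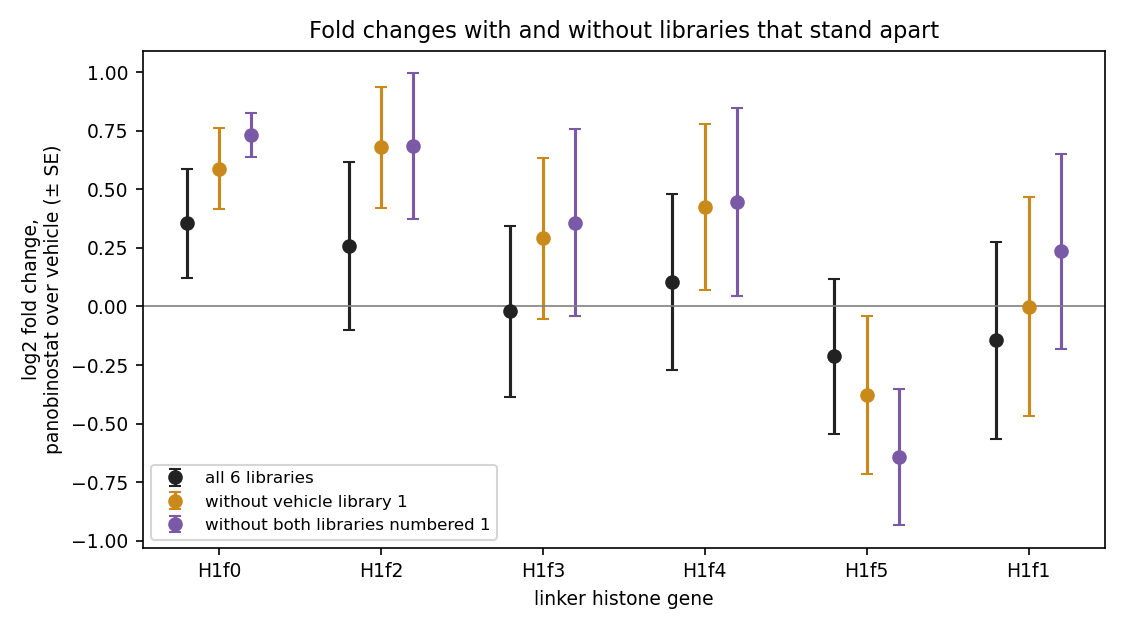
Log2 fold change of panobinostat over vehicle with its standard error for the 6 tested linker histone genes, from edgeR on all 6 libraries, without vehicle library 1 and without both libraries numbered 1. The H1f0 estimate is 0.35, 0.59 and 0.73, and its bar shortens; the bars of H1f3 and H1f1 reach across 0 in each of the 3 fits.

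The core histone genes listed by name as replication-dependent, which encode H2A, H2B, H3 and H4, did not follow the H1 genes across libraries. Whether the transcript of each listed gene, H2bc21 included, ends in the stem-loop was not tested. The 5 replication-dependent H1 genes summed to 145, 134 and 163 CPM in panobinostat libraries 1, 2 and 3, and to 190.2, 69.8 and 128 CPM in vehicle libraries. The mean log2 sum was 7.19 with panobinostat and 6.90 with vehicle, a difference of 0.30 (exact permutation p = 0.7), which was 0.63 without vehicle library 1 and -0.09 without vehicle library 2. The 61 core histone genes summed to 453, 430.0 and 523 CPM in panobinostat and 508, 519.7 and 558 CPM in vehicle libraries. The highest sum was 1.30 times the lowest for core histones and 2.72 times for H1. The ratio of the H1 sum to the core sum was 0.320, 0.311 and 0.311 in panobinostat and 0.375, 0.134 and 0.229 in vehicle libraries. The panobinostat libraries agreed closely in this ratio, while the vehicle libraries lay above and below them (exact permutation p = 0.4). The difference in this ratio was 0.0676 over all libraries, 0.132 without vehicle library 1 and 0.0118 without vehicle library 2.

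**Figure D4:**
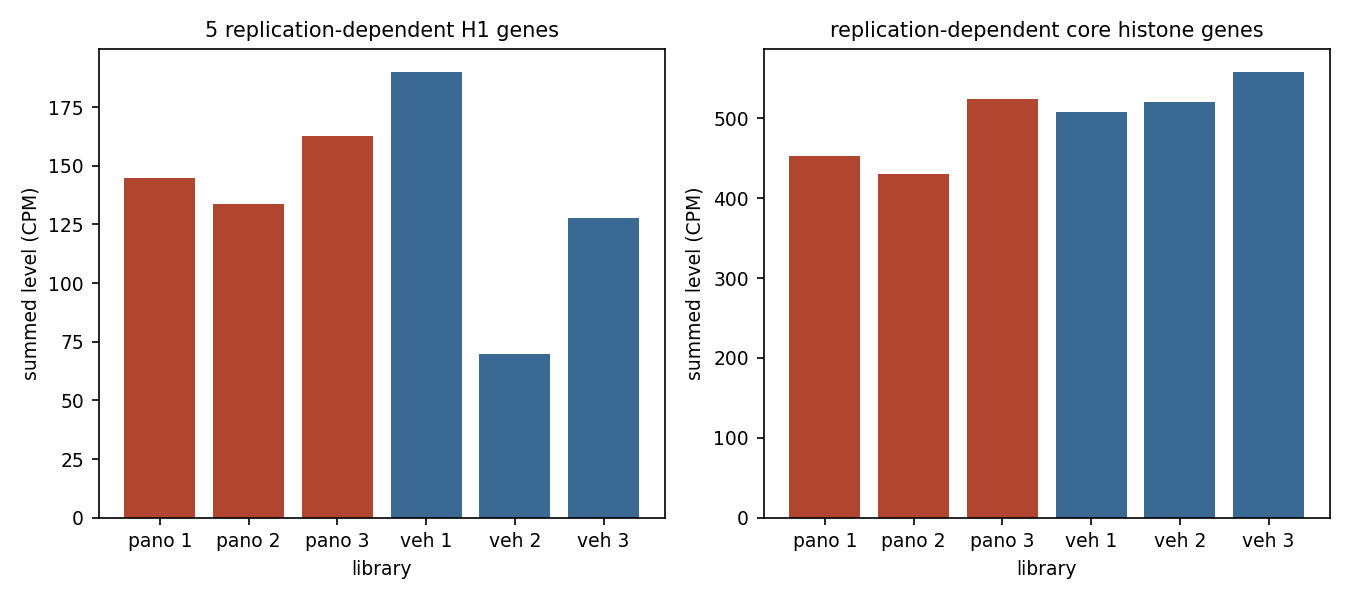
Summed CPM of the 5 replication-dependent H1 genes on the left and of the 61 replication-dependent core histone genes on the right, with panobinostat (pano) libraries in red and vehicle (veh) libraries in blue. The H1 sum of vehicle library 2 is 69.8 CPM, the lowest of the 6, while its core histone sum is 519.7 CPM.

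Of the 61 core histone genes 60 were tested, and edgeR called 0 higher and 0 lower. The estimate was below 0 for 53 and above 0 for 7, with a median log2 fold change of -0.15, against 0.00090 over all 13207 genes, where 6575 estimates were below 0. The H2B genes held the 4 smallest p-values. H2bc21 stood at 21.1, 23.2 and 26.4 CPM in panobinostat and 22.4, 32.4 and 39.1 CPM in vehicle libraries, with overlapping groups. H2bc1, a testis-type H2B, stood at 3.92, 3.51 and 4.03 CPM in panobinostat and 4.55, 4.88 and 4.61 CPM in vehicle libraries. H2bc12 stood at 8.40 ± 1.13 CPM with panobinostat and 10.4 ± 1.43 CPM with vehicle, and H2bc4 at 18.6 ± 1.69 CPM with panobinostat and 22.1 ± 2.99 CPM with vehicle (SD, n = 3 each). The groups did not overlap for 2 of the 60 genes, H2bc1 and H2ac21, both lower with panobinostat, against 3.63% of all tested genes. The sum over the 18 H2B genes was 159, 142 and 171 CPM in panobinostat and 180, 177 and 206 CPM in vehicle libraries, which did not overlap (exact permutation p = 0.1, the smallest possible; 0.4 adjusted over the 4 histone classes). The sum over the 18 H2A genes was 172, 174 and 216 CPM in panobinostat and 214, 211 and 212 CPM in vehicle libraries (exact permutation p = 0.4). The sum over the 12 H3 genes was 58.3, 54.7 and 66.5 CPM in panobinostat and 55.3, 59.1 and 64.2 CPM in vehicle libraries, and that over the 13 H4 genes 63.5, 58.9 and 69.7 CPM in panobinostat and 58.2, 72.2 and 76.5 CPM in vehicle libraries. Groups overlapped for these 3 classes. Many core histone genes are near-identical copies, so counts of single genes are uncertain.

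Among 9 replacement core histone genes, whose products enter chromatin outside S phase, 0 were called. Macroh2a1, the macroH2A1 variant, stood at 200.4, 132 and 136 CPM in panobinostat and 126, 118 and 123 CPM in vehicle libraries, and its groups did not overlap, against 3.79% of all tested genes higher in this way. The log2 fold change was 0.36 (SE 0.177), and 0.14 without panobinostat library 1. H3f3a, which encodes H3.3, stood at 213, 196 and 196 CPM in panobinostat and 184, 300.3 and 251 CPM in vehicle libraries. H2az2, an H2A.Z gene, stood at 42.9, 47.1 and 45.7 CPM in panobinostat and 42.5, 64.3 and 58.4 CPM in vehicle libraries. In both genes vehicle library 1 was the lowest of the 6. Without both libraries numbered 1, edgeR called H3f3a lower at -0.50 (adjusted p 0.0300) and H2az2 lower at -0.41 (adjusted p 0.0367), and it called 4.65% of all genes lower in that fit. Leaving vehicle library 1 out raises the vehicle mean of both genes in advance, so these calls give no separate support.

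Proteins that chaperone H1 or compete with it for nucleosomes formed a list of 20 genes, of which 19 were tested and 0 called, with a median log2 fold change of -0.03. Groups did not overlap for 3, all higher with panobinostat, against 3.79% of all tested genes. Set, a histone chaperone, stood at 472, 497 and 513 CPM in panobinostat and 407, 459 and 459.6 CPM in vehicle libraries. Nap1l1, a nucleosome assembly protein, stood at 471, 495 and 496 CPM in panobinostat and 409, 444 and 443 CPM in vehicle libraries. Hmga1, a high mobility group protein that binds AT-rich DNA, stood at 219.7, 225 and 201 CPM in panobinostat and 173, 195 and 189 CPM in vehicle libraries. The log2 fold changes of these 3 were 0.16 (SE 0.102), 0.18 (SE 0.0937) and 0.22 (SE 0.0992), each with an edgeR adjusted p of 0.998. Dek, a chromatin architectural protein, stood at 309, 418 and 382 CPM in panobinostat and 303.5, 550.0 and 569 CPM in vehicle libraries. Without both libraries numbered 1, edgeR called Dek lower at -0.49 (adjusted p 0.0196), and Hmgb2, Hmgn5 and Parp1 were called lower there too. That fit called 4.65% of all genes lower. In this list 0 were called without vehicle library 1 alone.

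Of the factors that transcribe histone genes and cleave their transcripts, 13 were listed and tested, 0 were called, and the median log2 fold change was -0.00151. Cpsf3, the endonuclease of the 3′ end cleavage complex, stood at 173, 111 and 114 CPM in panobinostat and 99.9, 106 and 106 CPM in vehicle libraries. Its groups did not overlap, which held for 1 of the 13 genes, against 3.79% of all tested genes higher in this way. Its log2 fold change was 0.35 (SE 0.187), and 0.12 without panobinostat library 1. Cpsf2, its partner subunit, stood at 267 ± 49.2 CPM with panobinostat and 219 ± 22.6 CPM with vehicle (SD, n = 3 each). In panobinostat library 1 Cpsf3, Cpsf2 and Macroh2a1 were each highest. The summed level of the mast cell and basophil markers was highest in that library too, though not that of every single marker.

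Genes of S phase, when the replication-dependent histones are transcribed, gave 0 calls among 25 tested, with 22 estimates below 0 and a median log2 fold change of -0.06. Their summed level was 4422, 5826 and 5257 CPM in panobinostat and 4165, 5993 and 5854 CPM in vehicle libraries. Vehicle library 2, which had the lowest H1 sum, thus had the highest S phase sum, and vehicle library 1, with the highest H1 sum, had the lowest. Ccna2, cyclin A2, stood at 195, 227 and 218 CPM in panobinostat and 166, 285 and 266 CPM in vehicle libraries. Ccne2, a cyclin E, stood at 15.1, 22.2 and 20.7 CPM in panobinostat and 17.6, 23.3 and 28.9 CPM in vehicle libraries.

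Genes of cell cycle arrest, a state in which H1f0 accumulates in many cells, gave 0 calls among 15 tested, with 5 estimates above 0 and 10 below and a median of -0.15. Without vehicle library 1 the median was 0.18, with Gadd45b called higher and Cdkn2c and Gadd45a called lower, in the fit that called 2.42% of all genes. Without both libraries numbered 1 it was 0.24, with Cdkn1a, Cdkn1c, Cdkn2a and Gadd45b called higher and Cdkn2c and Gadd45a lower. That fit called 7.36% of all genes higher and 4.65% lower. Among vehicle libraries, library 1 was the highest for each gene called higher and the lowest for each called lower. Leaving it out moves these estimates that way in advance, so the calls give no separate support. Gadd45a, a stress sensor that can arrest cells in G2, stood at 6.92, 8.99 and 14.7 CPM in panobinostat and 7.93, 40.5 and 36.3 CPM in vehicle libraries. Cdkn2c, the CDK inhibitor p18, stood at 30.9, 31.1 and 28.3 CPM in panobinostat and 23.1, 54.9 and 43.9 CPM in vehicle libraries. In both genes vehicle library 1 was on the side of the panobinostat libraries, as it was for H1f0.

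The genes whose profile over the 6 libraries lay nearest to that of H1f0 were Chst12, Serpinb9, Gabarapl1, Tmem43 and Napepld, among 9447 genes with a mean log2 CPM of at least 3. Nearness was the root mean square difference of log2 CPM centred on each gene's mean, which was 0.04 for Chst12, a chondroitin sulfotransferase, and 0.07 to 0.08 for the other 4. Chst12 stood at 12.1, 15.2 and 16.5 CPM in panobinostat and 14.6, 10.4 and 9.11 CPM in vehicle libraries. Nearest to H1f2 were Nbeal1 and Rnf125, with differences of 0.05 and 0.07, then Mdm4, the p53 regulator, and Vps13c and Rad54l2, with 0.14 each. Nbeal1 stood at 17.1, 14.9 and 16.9 CPM in panobinostat and 19.7, 6.86 and 12.9 CPM in vehicle libraries. With 6 libraries, which share sort and depth, such nearness is a description only, and the lists for H1f0 and H1f2 share no gene.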

How the data were processed

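The authors' deposited file gives raw counts, whole numbers for each Entrez gene ID. The submitters' processing notes name HISAT2 (2.1.0) and the build mm10, Subread (2.0.0) and its featureCounts, cutadapt (2.1), bcl2fastq (2.17.1.14), limma and FastQC (0.11.6). Which options, annotation and strand setting applied is not given in the sources used. A column carries its group and a number from 1 to 3, and nothing links that number to a replicate label. RefSeq (GRCm38.p6) supplied symbols, lengths and coordinates and matched 25275 of 27179 IDs.

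Genes that passed filterByExpr (minimum count 10) entered edgeR 4.0.16 (R 4.3.3) with TMM factors and the robust quasi-likelihood F-test, two-sided, with Benjamini-Hochberg adjustment over 13207 genes and a threshold of 0.05. The SE is the size of the log2 fold change divided by the square root of F. Values with 1 number per library were compared by exact permutation. The procedure was tested on simulated data.

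Members and gene lists were chosen with earlier results of these data known. The named genes are the members, genes among the 4 of each list with the smallest p, and the 5 profiles nearest to H1f0 and to H1f2. Cdkn1a, Gp1ba and the genes named for a call without a library, or for a count of 0 or of groups that do not overlap, were chosen after their values were seen. Alternatives covered other scaling factors, other low-count filters, DESeq2 1.42.0, voom from limma 3.58.1, a replicate block, a fit that is not robust, a threshold of 0.01, other length scaling and libraries left out. GENCODE lengths, and the ratios of H1f3 to H1f4 and of H1 to core histones with libraries left out, were added after the data were seen, as was the adjustment over the core histone classes.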

Additional observations from a re-analysis of the deposited data

How the results depend on the processing

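Across the other scalings, filters and thresholds tried, 0 members and 0 genes were called; DESeq2 called 9 genes. Leaving out 1 library gave 0 to 324 genes, with 324 reached without vehicle library 1, and leaving out both libraries numbered 1 gave 1590 genes and 1 member, H1f0, at 0.73. The H1f0 log2 fold change lay between 0.22 and 0.59 with 1 library left out. That of H1f1 ran from -0.66 to 0.090 and was 0.24 without both libraries numbered 1. That of H1f2 ran from -0.047 to 0.68, of H1f4 from -0.21 to 0.42 and of H1f5 from -0.48 to 0.018. H1f3 ran from -0.33 to 0.29, and was 0.085 with limma-voom, 0.076 with the replicate block and 0.36 without both libraries numbered 1. Cdkn1a ran from -0.17 to 1.87 and F2r, a megakaryocyte marker, from -0.046 to 1.32. The difference in the H1f0 share ran from -2.23 to 6.18 percentage points, and that of the log2 H1 sum from -0.090 to 0.63. The causes were not tested. Deviations from the group means correlated at -0.139, 0.0720 and -0.203 between same-numbered libraries. Between libraries of different number the correlations ran from -0.177 to 0.233. Such deviations from means of 3 libraries cannot decide whether the numbers pair libraries. With the replicate block 0 genes were called and H1f0 stood at 0.38. Depth limits H1f10, which had at most 2 reads in a library. Macroh2a1 and Cpsf3 stood at 0.14 and 0.12 without panobinostat library 1.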
